A study of Homo sapiens with 20 samples.

Results

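The regions described here carried H3K4me3 peaks in both libraries of drug-tolerant WM164 melanoma colonies and in neither library of the parental cells. H3K4me3 is trimethylation of histone H3 at lysine 4. Overlapping peaks of 10 H3K4me3 lists were merged into 49758 regions on the 22 autosomes and X, and 356 of them (0.715%) met the rule. They are called new colony regions below. Of these 356 regions, 233 (65.4%) lay more than 1000 bp from any parental peak and are called isolated, and 123 (34.6%) lay within 1000 bp of one. Peaks were present in both libraries of the resistant cells at 48 of the 356 regions (13.5%), in 1 of them at 21 (5.90%) and in neither at 287 (80.6%). The regions were chosen by the presence of peaks in the Colony and parent lists, and their classes by presence in the Resist lists and distance from parental peaks, so all values that set Colony against parent are descriptions with no test.

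WM164 cells come from a human melanoma whose BRAF kinase is mutant, and the drug dabrafenib inhibits that kinase. The study had 5 groups of 2 H3K4me3 libraries each, and every group was made from WM164 cells. Colony cells were those present after 45 days in 50 nM dabrafenib. Resist cells had grown for over 90 days at that dose. The drug was renewed every 3 days in both. Q61K cells overexpressed NRAS Q61K, a constitutively active form of a RAS protein that acts upstream of BRAF, and GFP cells overexpressed green fluorescent protein. Parent cells received the solvent DMSO for 3 days. The sources used here do not give the vector or promoter of the transgenes, whether the lines came from single clones, or whether the Q61K and GFP cells received any drug. Nothing in the labels says that the paired libraries came from separate cultures, so differences are set against a spread that may be technical.

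H3K4me3 is deposited by methyltransferases of the SET1 and MLL family, removed by KDM5 demethylases, and found mainly at the start sites of active or poised genes. At active promoters the mark flanks the start site, and wide domains of it are often found at genes that define a cell's identity. Tumour cells that survive a targeted drug without a resistance mutation are called drug-tolerant, and KDM5 enzymes have been linked to that state in melanoma and other cancers. Regions are named here by chromosome band and by their GRCh37 position counted from 1. The gene annotation at hand belongs to another build, so no gene was assigned to a region, no sequence was read, and marker genes of the cell type were not checked.

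Peaks numbered 21408 and 21573 in the Colony lists, 19401 and 19111 in Resist, 40648 and 37649 in Q61K, 41806 and 45376 in GFP, and 29258 and 30065 in parent. The shortest peak was 282 and 284 bp in Colony, 255 and 256 bp in Resist, 153 and 151 bp in Q61K, 142 and 153 bp in GFP, and 202 and 180 bp in parent. The lists hold no read counts. The authors' fold and p-value of a peak can be solved for the number of overlapping fragments at its summit, here called the pileup. It was solved here in a sample of the weaker peaks of each list, 1090 and 1071 in Colony and 1625 and 1730 in parent. The smallest pileup in these samples was 14 and 13 in Colony, against 14 and 11 in parent, and the whole lists may hold smaller ones.

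New colony regions were mostly weak and narrow beside the rest of the same lists. The median −log10 q of the strongest peak per region was 5.91 in Colony 1 and 6.32 in Colony 2, against medians of 22.1 and 22.7 over all peaks of those lists. Only 20.8% of Colony 1 peaks and 24.2% of Colony 2 peaks were weaker than that median region. The regions had a median of 494.5 and 528 bp under peaks, with ranges of 282 to 5121 bp and 284 to 5463 bp. The median summit pileup was 23 in Colony 1 and 22 in Colony 2, with ranges of 15 to 326 and 13 to 327.

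Regions with a peak in 1 Colony list and no parent list lie just outside the rule, and there were 1833 of them, 801 from Colony 1 and 1032 from Colony 2. Their median −log10 q was 4.10 and their median length under peaks 329 bp. Among the 25325 regions unmarked in both parent lists, the 356 made up 1.41%. Over the 356 regions, the covered bases of Colony 1 and Colony 2 had a Spearman correlation of 0.65 and the −log10 q of 0.59, as descriptions across regions of the same 2 libraries. The count depended on each Colony library and on parent 1: the rule would take 1600 regions without Colony 1, 1386 without Colony 2 and 565 without parent 1. At 110 regions (30.9%) the covered bases of the 2 Colony lists differed by more than 1.5 times.

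A small subset was strong in both Colony libraries. At 41 regions the −log10 q was 10 or more in both, and all 41 were isolated. Of these, 15 had peaks in both Resist lists, 1 in 1 list and 25 in neither. In 14 regions at least 2000 bp lay under peaks in both Colony libraries.

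**Figure D1:**
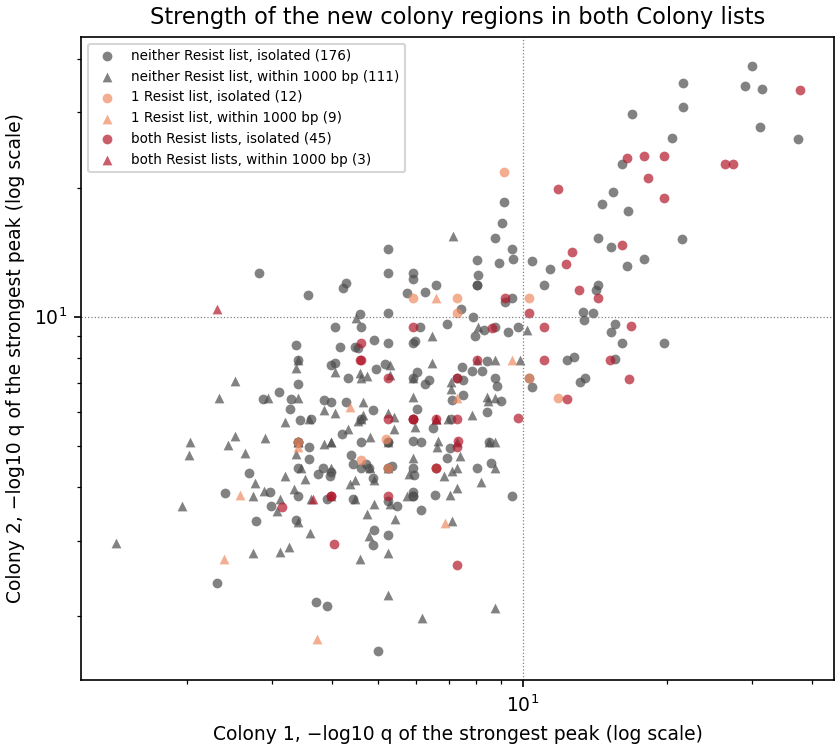
Strength of each of the 356 new colony regions, as −log10 q of its strongest peak in Colony 1 (x axis, log scale) and Colony 2 (y axis, log scale). Colour gives presence in the Resist lists and shape the distance from parental peaks; dotted lines mark a −log10 q of 10, and the 41 regions past both lines are all circles, the isolated class.

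Isolated regions and regions beside parental peaks differed in strength, width and presence in the Resist lists, as far as a description of chosen regions goes. Isolated regions had a median −log10 q of 7.21 (mean of the 2 Colony lists) and 634.5 bp under peaks, and regions within 1000 bp had 5.02 and 415.5 bp. Peaks in both Resist lists were present at 45 of 233 isolated regions (19.3%) and at 3 of 123 regions within 1000 bp (2.44%). The median distance to the nearest parental peak was 56846 bp for isolated regions and 384 bp for the others, of which 34 lay within 200 bp and 75 within 500 bp. The distances formed 2 humps, one below 1000 bp and one around 100000 bp.

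The 3 regions just inside the limit lay 976 bp (17p11.2), 983 bp (6q22.33) and 989 bp (2q34) from a parental peak. They covered 399 and 318 bp, 331 and 309 bp, and 385 and 332 bp in Colony 1 and 2. The 3 just outside lay 1024 bp (8q12.1), 1060 bp (15q22.2) and 1061 bp (1p34.1) away. They covered 285 and 290 bp, 315 and 284 bp, and 282 and 284 bp. All 6 were present in no list other than the Colony lists, and the 3 inside the limit were somewhat wider, by the mean of both Colony libraries, than the 3 outside it.

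**Figure D2:**
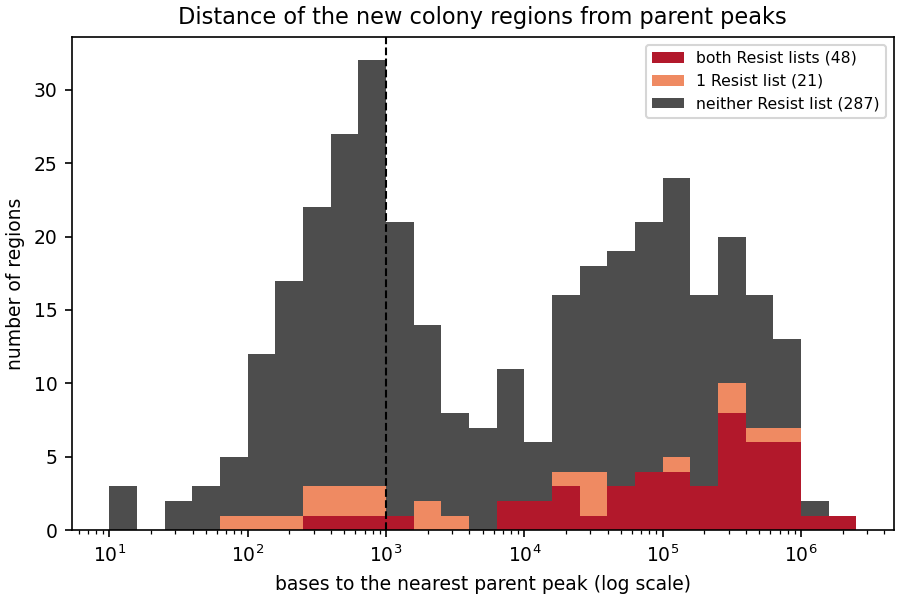
Number of new colony regions (y axis) by distance from the nearest parental peak in bases (x axis, log scale), stacked by presence in the Resist lists. The dashed line marks 1000 bp; the regions found in both Resist lists lie almost wholly to its right, with a median distance of 220940 bp.

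The 123 regions within 1000 bp stood beside 123 different parent-marked regions, most of which were marked throughout the series. Of these neighbours, 106 had peaks in both Colony lists, 106 in both parent lists and 90 in all 10 lists. Their median length under peaks was 3072 and 3016 bp in Colony, 2286 and 2366 bp in Resist, 3026 and 3015 bp in Q61K, 3021 and 2871 bp in GFP, and 2872 and 2622 bp in parent. Both Colony libraries covered more bases than both parent libraries at 59 neighbours (48.0%) and fewer at 9 (7.32%). Over the 14261 regions marked in both Colony and both parent lists, those shares were 28.3% and 24.2%. Some of the 123 neighbours were not marked in all of those lists. They were also picked through Colony and parent peaks, so the 2 sets are not alike. At 12 neighbours neither Colony list had a peak, and 9 of these were marked in parent 1 and not in parent 2, so the parental peak itself was found in 1 library only.

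The strongest regions beside parental peaks were modest. At 15q15.1 (chromosome 15, 42560605 to 42562100), 138 bp from a parental peak, 995 and 1496 bp were covered in Colony, 268 bp in GFP 1, and none in the other lists. At 2q13 (chromosome 2, 114197858 to 114198499) the values were 513 and 605 bp in Colony, 365 and 0 bp in Q61K, and 337 and 439 bp in GFP. At 13q34 (chromosome 13, 110426110 to 110427200) 1091 and 992 bp were covered in Colony and none elsewhere. The 2q13 region was thus marked in both GFP libraries although it was absent from parent. At 19q13.2 (chromosome 19, 42817498 to 42817953) the values were 380 and 441 bp in Colony, 256 bp in Resist 2 and 390 bp in Q61K 2. At 20q13.12 (chromosome 20, 43147836 to 43148669) they were 325 and 563 bp in Colony and 329 bp in GFP 1.

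**Figure D3:**
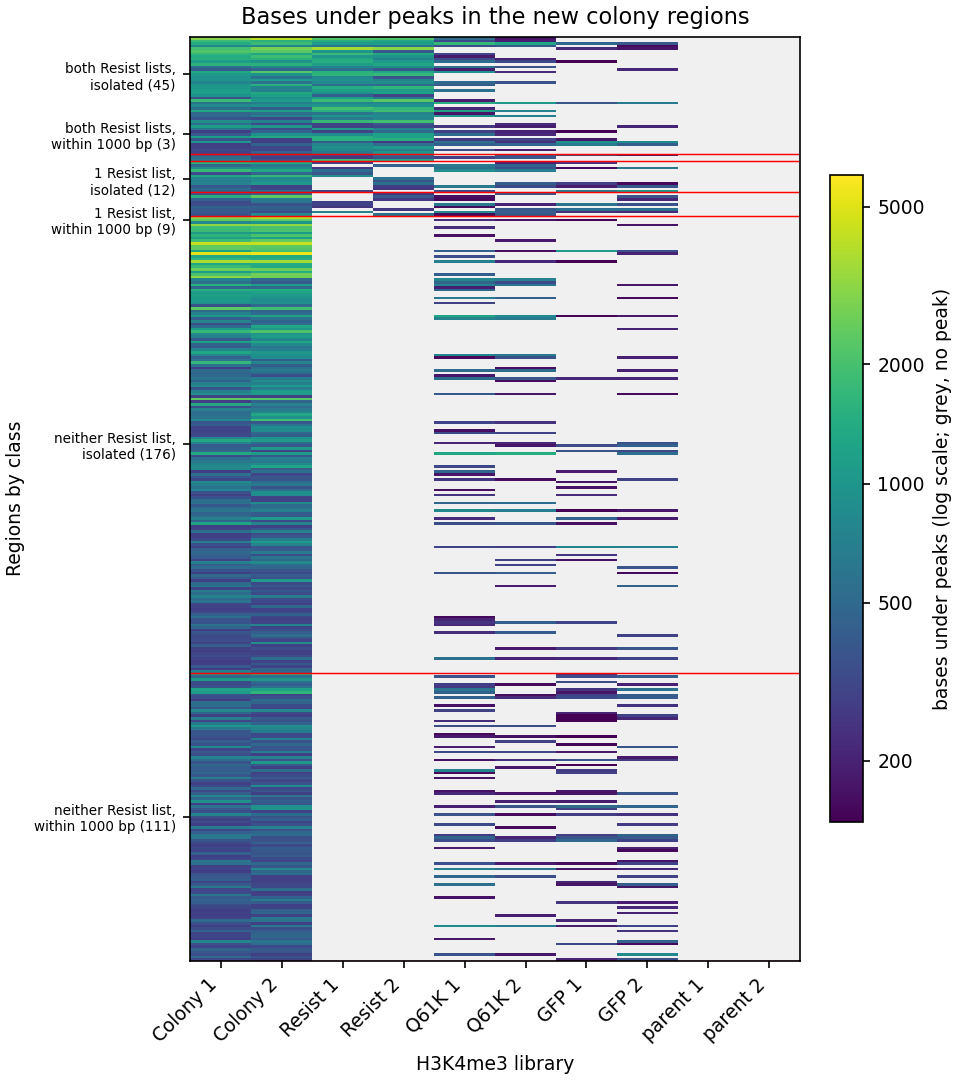
Bases under peaks in each of the 10 libraries (columns) at each of the 356 new colony regions (lines of the map, ordered by class and then by strength in Colony). Colour is on a log scale and grey means no peak; the parent columns are empty by the rule, the Resist columns are filled at 58 and 59 regions, and the Q61K and GFP columns are filled in scattered regions of every class.

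Regions marked in both Resist lists were stronger and more distant from parental peaks than those in neither, while regions in 1 Resist list were not. The 48 regions in both Resist lists had a median of 801 bp under Colony peaks and a median −log10 q of 7.88, and the 287 in neither had 478.5 bp and 5.82. The median distance from a parental peak was 220940 bp for the 48 and 2532 bp for the 287. The 21 regions in 1 Resist list had a median −log10 q of 5.52 and a median distance of 2167 bp. In both Resist lists, peaks were present at 2.36% of all regions unmarked in parent (597 regions), so the 48 are 13.5% of the new colony regions and 8.04% of the regions new in Resist. Both lists were made against the same parent libraries, which bears on that overlap, and it was not tested. Without parent 1 the rule would give 104 regions in both Resist lists in place of 48. At the 48 regions the median length under peaks was 974.5 and 917.5 bp in Resist, against 916.5 and 774 bp in Colony. The median −log10 q was 11.6 in each Resist library, against 8.31 and 7.92 in Colony. A −log10 q ranks peaks within its own list, so these medians do not measure the mark between libraries. Both Resist libraries covered more than both Colony libraries at 19 of the 48 and less at 12, and the ranges overlapped at 17. These counts use bases as listed. At regions marked in every list, Resist peaks were narrower, with relative median log2 lengths of -0.174 and -0.207, against 0.012 and 0.039 in Colony. The 48 were also chosen by their Colony and Resist peaks, and no share over all regions was set beside the counts. In listed bases, the 48 were thus not uniformly wider or narrower in Resist than in Colony. No direction is drawn from 19 against 12.

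The strongest region present in both drug groups lay at 7q22.2 (chromosome 7, 103968533 to 103972624), 118847 bp from the nearest parental peak. Its peaks covered 2158 and 2093 bp in Resist, against 3013 and 4092 bp in Colony, with 535 and 175 bp in Q61K and none in GFP or parent. Resist thus covered fewer bases than Colony, with no overlap. Its −log10 q, which ranks peaks within a list only, was 21.7 and 19.1 in Resist and 37.7 and 33.9 in Colony. A further 2 new colony regions fell in this band, both short and absent from Resist. One (chromosome 7, 104397735 to 104398216) covered 308 and 288 bp in Colony, and the other (104434510 to 104435511) covered 747 and 523 bp, lay 792 bp from a parental peak and was also marked in all 4 GFP and Q61K lists.

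At 19q13.12 (chromosome 19, 37808149 to 37810101) peaks covered 1460 and 1291 bp in Resist and 1843 and 1590 bp in Colony, with 324 and 192 bp in Q61K and none in GFP or parent. At 4q34.3 (chromosome 4, 177712032 to 177714020) the values were 1075 and 1151 bp in Resist, 1437 and 1812 bp in Colony, 1715 and 1324 bp in Q61K, and 495 and 403 bp in GFP. That region was thus marked in every library but the parental ones. At 21q21.1 (chromosome 21, 22370469 to 22371521) the values were 636 and 565 bp in Resist, 804 and 782 bp in Colony, 347 and 395 bp in Q61K, and 0 and 153 bp in GFP.

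The region at 1p36.32 (chromosome 1, 4035383 to 4039011) went the other way. Peaks covered 3629 and 3136 bp in Resist, against 1952 and 2763 bp in Colony, with none in Q61K and 218 and 172 bp in GFP. Resist and Colony did not overlap in covered bases. The −log10 q of this region, which ranks peaks within a list only, was 58.2 and 70.7 in Resist and 17.8 and 23.7 in Colony. In the 17 regions marked in both drug groups and in no GFP or Q61K list, the strongest in Colony lay at 2p23.1 (chromosome 2, 31359059 to 31361515), 1010 and 390 bp in Resist and 2166 and 2299 bp in Colony. Another of the 17, at 13q21.31 (chromosome 13, 65453113 to 65455236), covered 1737 and 1935 bp in Resist and 898 and 720 bp in Colony. These 2 were picked after their values were seen, to show the range within the set.

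Regions in 1 Resist list had short peaks there. The 5 strongest isolated ones lay at 1q41 (chromosome 1, 220473600 to 220475366), 9p13.3 (chromosome 9, 34957407 to 34958114), Xq26.3 (chromosome X, 134970036 to 134970996), 8p12 (chromosome 8, 32405444 to 32407178) and 5q33.2 (chromosome 5, 155108797 to 155109283). The 1 Resist library with a peak covered 276, 458, 259, 547 and 384 bp there in that order, and the other Resist library none. Colony covered 1544 and 1383 bp at 1q41, and 1733 and 1308 bp at 8p12. At the last 2 sites the Resist value was far below both Colony values, while at 5q33.2, with 322 and 475 bp in Colony, it lay between them.

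**Figure D4:**
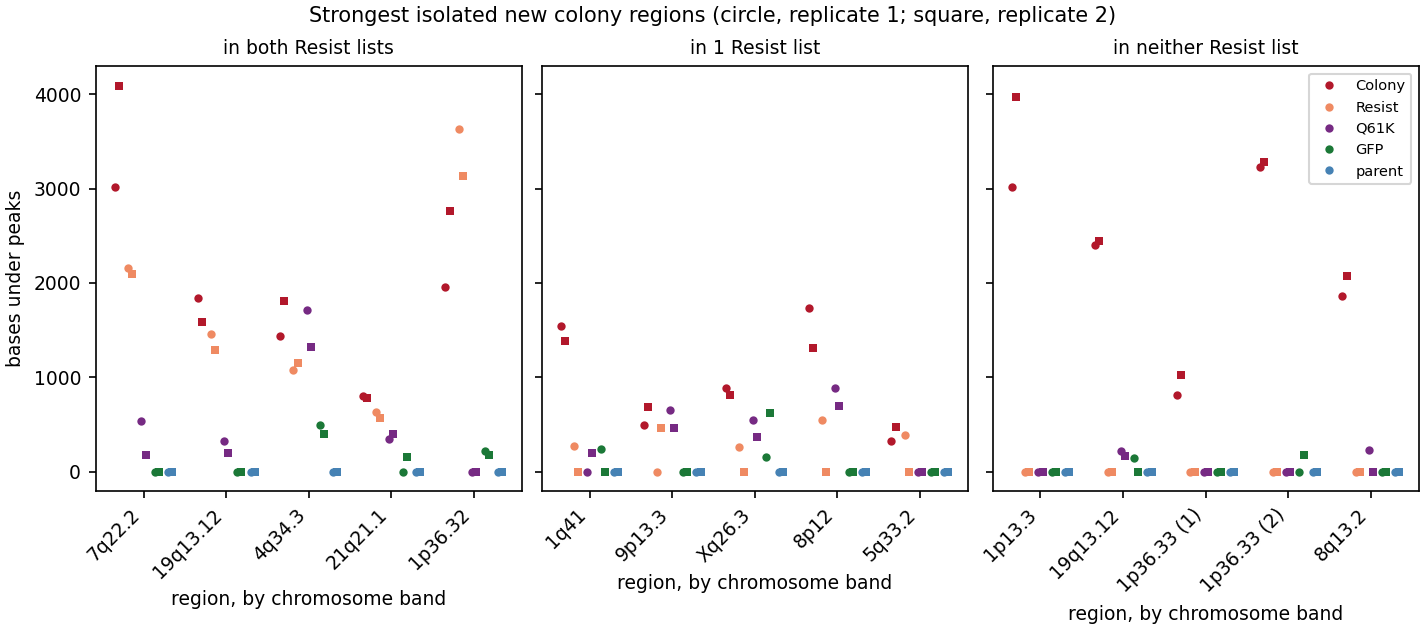
Bases under peaks (y axis) in every library at the 5 strongest isolated regions of each Resist class (x axis, by chromosome band); circles are replicate 1 and squares replicate 2, coloured by group. At 1p36.32 both Resist points, 3629 and 3136 bp, lie above both Colony points, and at 1p13.3 only the Colony points, 3019 and 3971 bp, are above 0.

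Most new colony regions were missing from both Resist lists, and these included the 3 widest. At 11p15.2 (chromosome 11, 15865349 to 15870902) peaks covered 5121 and 5463 bp in Colony and none in Resist, Q61K or parent, with 199 bp in GFP 2. At 8q22.2 (chromosome 8, 99385255 to 99389706) they covered 4357 and 4317 bp in Colony and none in any other library. At 4q21.21 (chromosome 4, 80243545 to 80247710) they covered 3735 and 3540 bp in Colony, 704 and 216 bp in Q61K, and 142 and 0 bp in GFP. Widths of this order are common for H3K4me3 at active promoters, and these 3 domains lay 119693, 6797 and 25882 bp from the nearest parental peak.

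By strength, the leading region of this class lay at 1p13.3 (chromosome 1, 111738998 to 111742968), with 3019 and 3971 bp in Colony, −log10 q of 30.0 and 38.5, and no peak in the 8 other libraries. At 19q13.12 (chromosome 19, 38084351 to 38086904) peaks covered 2406 and 2445 bp in Colony, 219 and 168 bp in Q61K, and 144 and 0 bp in GFP. At 8q13.2 (chromosome 8, 70378370 to 70380466) they covered 1866 and 2076 bp in Colony and 226 bp in Q61K 1. These 3 regions were thus at their widest in both Colony libraries, with at most short peaks in the transgene cells.

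A further 2 of the 5 strongest regions in this class, both at 1p36.33, had an unusual profile. They lay on chromosome 1 at 565740 to 566763 and at 567125 to 570460, with 811 and 1024 bp, and 3231 and 3286 bp, under Colony peaks. The next, at 564440 to 565674, covered 1220 and 1233 bp. The 3 are the only new colony regions whose summit pileup reached 100 in both Colony lists, at 285 to 327 fragments. In the order named here, the authors' fold in Colony 1 was 2.18, 2.46 and 1.82. Over all 356 regions the median fold was 3.51 in Colony 1 and 3.72 in Colony 2, so these peaks stood on a high local background. This stretch of 1p36.33 is known to hold a nuclear copy of mitochondrial DNA. On the mitochondrial sequence itself, peaks covered 16569 bp in each Colony library, 0 bp in each Resist and Q61K library, 148 and 4571 bp in GFP, and 12600 and 14291 bp in parent. The highest −log10 q there was 59.9 and 77.4 in Colony, against 17.6 and 24.8 in parent. The mitochondrial peaks were thus widest in Colony, whereas the 1p36.33 regions have Colony peaks and no parent peak by the rule. The part of mitochondrial reads in the 1p36.33 peaks was not tested.

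Many of the new colony regions were shared with lists other than parent. Peaks occurred in the Colony lists alone at 163 regions (45.8%), that is 114 of 233 isolated regions (48.9%) and 49 of 123 within 1000 bp (39.8%). The Q61K libraries marked 119 and 90 of the 356 regions, and the GFP libraries 73 and 78. In all, 170 regions (47.8%) had a peak in at least 1 of the 4 GFP and Q61K lists, and 24 had one in all 4. Cells that carry a transgene and were not described as drug-treated therefore shared many of these marks. Where present, the peaks were short, with medians of 335 and 296.5 bp in Q61K and 224 and 291.5 bp in GFP. The GFP and Q61K lists are the longest of the series and hold the shortest peaks, and the part of list length in these shares was not tested.

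Both Q61K lists marked 70 new colony regions (19.7%), beside 9.20% of all regions unmarked in parent. Both GFP lists marked 43 (12.1%), beside 9.19%. No peak in any of these 4 lists was found at 186 regions (52.2%), beside 2278 of the 25325 regions unmarked in parent. That background is low by construction, since a region unmarked in Colony, Resist and parent exists only through a GFP or Q61K peak. In sets with the same constraint, the share was 62.7% of the 1833 regions in 1 Colony list and 71.2% of the 597 regions new in Resist. By Resist class it was 35.4% of the 48 regions in both Resist lists, 28.6% of the 21 in 1 list and 56.8% of the 287 in neither. The difference between these classes was not tested.

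The difference between Q61K and GFP is measured in libraries that did not choose the regions, although the spread behind its p-values also came from the Colony and parent libraries. Covered length was tested with limma on log2(bases under peaks + 200) over the 29656 regions with a peak in at least 2 lists. At a Benjamini-Hochberg adjusted p of 0.05, Q61K was higher at 5.39% and lower at 4.18% of all regions. Among the 356 new colony regions, 31 (8.71%) rose and 7 (1.97%) fell. All 356 passed the filter by their 2 Colony peaks, and 186 had no peak in any of the 4 Q61K and GFP lists. Their shares are therefore not on the same footing as those of all regions. Among the 107 with a peak in at least 2 of the 4 Q61K and GFP lists, 29.0% rose and 6.54% fell, beside 17.6% and 17.6% of the 5773 such regions unmarked in parent. At an unadjusted p of 0.05, 43 of the 356 rose and 12 fell. The balance of directions over the whole table depended on single libraries, with 1597 higher and 1240 lower as fitted, 1474 and 157 without GFP 1, 1523 and 127 without GFP 2, 218 and 585 without Q61K 1, and 247 and 523 without Q61K 2. Among the 107 the calls were 25 and 4 without GFP 1, 29 and 4 without GFP 2, 16 and 1 without Q61K 1, and 20 and 4 without Q61K 2. The new colony regions had more higher than lower calls in each of these fits. All 107 stayed in each of these fits, because their 2 Colony peaks passed the filter. Regions unmarked in parent dropped out where fewer than 2 lists remained, from 5773 as fitted to 4090 without GFP 1 and 3757 without Q61K 1. Shares of higher calls in the 2 sets are therefore not on the same footing in these fits, and they are not compared.

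Of the 31 regions that rose in Q61K, 21 had no peak in either GFP list, 28 were isolated and 14 were also in both Resist lists. Of the 7 that fell, 6 had no peak in either Q61K list, 3 were isolated and 1 was in both Resist lists. Among all 356, 233 were isolated and 48 were in both Resist lists. Q61K 1 and Q61K 2 had peaks at 28 and 22 of these 48, beside 119 and 90 of the 356. The make-up of the 107 regions was not set beside these counts, so no link between the calls and Resist is drawn. The test borrows its spread from all 5 groups, and in the Colony and parent groups the rule fixed part of that spread. Fitted on the 6 Resist, Q61K and GFP libraries, an alternative added after the data were seen, limma called 34 regions, of which 32 were also called with 10 libraries. Their adjusted p-values were larger, for example 0.00924 in place of 0.00173 at 19q13.42. With the 4 Q61K and GFP libraries alone, limma called 0 of the 107 new colony regions tested, with 40 higher and 11 lower at an unadjusted p of 0.05, and 59 regions over the whole table. Without Q61K 1, 20 new colony regions were called in place of 38. The calls thus depend on 1 library and on the spread shared with other groups.

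The 5 regions with the lowest p all rose in Q61K, and none had a GFP peak. At 19q13.42 (chromosome 19, 55517257 to 55518515) peaks covered 769 and 661 bp in Q61K and none in GFP (limma adjusted p = 0.00173), with 765 and 945 bp in Colony and none in Resist. At 12q24.31 (chromosome 12, 122101911 to 122102761) the values were 751 and 645 bp in Q61K and none in GFP (limma adjusted p = 0.00173), with 430 and 571 bp in Colony. At 8q24.22 (chromosome 8, 133491671 to 133492498) they were 796 and 738 bp in Q61K and none in GFP (limma adjusted p = 0.00242), with 759 and 491 bp in Colony. The Q61K and Colony lengths overlapped at 19q13.42 and 8q24.22, and at 12q24.31 both Q61K values lay above both Colony values. Resist, GFP and parent cells had no peak at these 3 sites.

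The other 2 were shared with resistant cells. At 6q22.1 (chromosome 6, 114662927 to 114664937) peaks covered 1181 and 742 bp in Q61K and none in GFP (limma adjusted p = 0.00173), with 1321 and 1193 bp in Colony and 1516 and 1888 bp in Resist. At 20q13.33 (chromosome 20, 61733028 to 61734058) the values were 1013 and 713 bp in Q61K and none in GFP (limma adjusted p = 0.00182), with 501 and 695 bp in Colony and 971 and 873 bp in Resist. These sites belong to 11 regions marked in both Colony, both Resist and both Q61K lists but in no GFP or parent list. Of the 356 regions, 23 were in both Q61K lists and no GFP list, and 7 in both GFP lists and no Q61K list. The share with these patterns over all regions unmarked in parent was not computed, so the 11 are a description only. A log2 change is not given where GFP had no peak, because it would depend on the 200 bp added.

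The 4q34.3 region had peaks in both groups, with 1520 ± 276 bp in Q61K and 449 ± 65.1 bp in GFP (SD, n = 2 each), a log2 change of 1.43 ± 0.17 (SE, limma adjusted p = 0.00355). The 1p36.32 region was called lower in Q61K, where it had no peak, against 218 and 172 bp in GFP (limma adjusted p = 0.0218). Its GFP peaks were weak, with a summit pileup of 12 in each library. In the sampled weaker peaks of each Q61K list, the smallest pileup was also 12. Whether the mark was absent from Q61K or lay below the threshold of its lists was not tested. Among the regions strongest in Colony, the 7q22.2 region rose, with 535 and 175 bp in Q61K and none in GFP (limma adjusted p = 0.0198), although its 2 Q61K values differed by more than 1.5 times.

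New colony regions were unevenly spread over the genome. Chromosome 21 had 12, which is 4.41% of its regions unmarked in parent, chromosome 13 had 20 (3.99%), chromosome 22 had 22 (3.16%) and X had 15 (2.60%). Regions in both Resist lists and neither parent list were also most frequent on chromosomes 21 and 13, at 6.99% and 4.99% of regions unmarked in parent, and this set was made against the same parent libraries. Chromosomes 14 and 16 had 1 each (0.114% and 0.106%), and chromosome 3 had 7 (0.554%). The single region of chromosome 14 lay at 14q11.2 (19504073 to 19505605) and covered 1533 and 1105 bp in Colony, and that of chromosome 16 lay at 16p13.3 (5665897 to 5666407) and covered 323 and 365 bp.

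Chromosomes with frequent new regions also ranked high in the width of shared marks in Colony relative to parent. At regions marked in all 10 lists, the median log2 covered length of Colony minus parent was 0.15 on chromosome 21 and 0.10 on chromosomes 22 and 1, against -0.08 on chromosomes 12, 14 and 16. Over the 23 chromosomes this shift and the share of new regions had a Spearman correlation of 0.77 and a Pearson correlation of 0.76. The sign of the shift depended on the parent library, since it was below 0 on 15 and 11 of 23 chromosomes for Colony 1 and Colony 2 against parent 1, and on 4 and 2 against parent 2. On chromosome 13, for example, Colony 1 was -0.02 against parent 1 and 0.11 against parent 2. Across the pairings of a Colony with a parent library, the Spearman correlations were 0.74 to 0.81. These pairings reuse the libraries that chose the regions, so their likeness is not replication. The same Colony and parent libraries enter both measures, so this is a description of these libraries. The difference between parent 2 and parent 1 had a Spearman correlation of -0.03 with the same share. Chromosome copy number was not measured, and its part in the uneven spread was not tested.

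**Figure D5:**
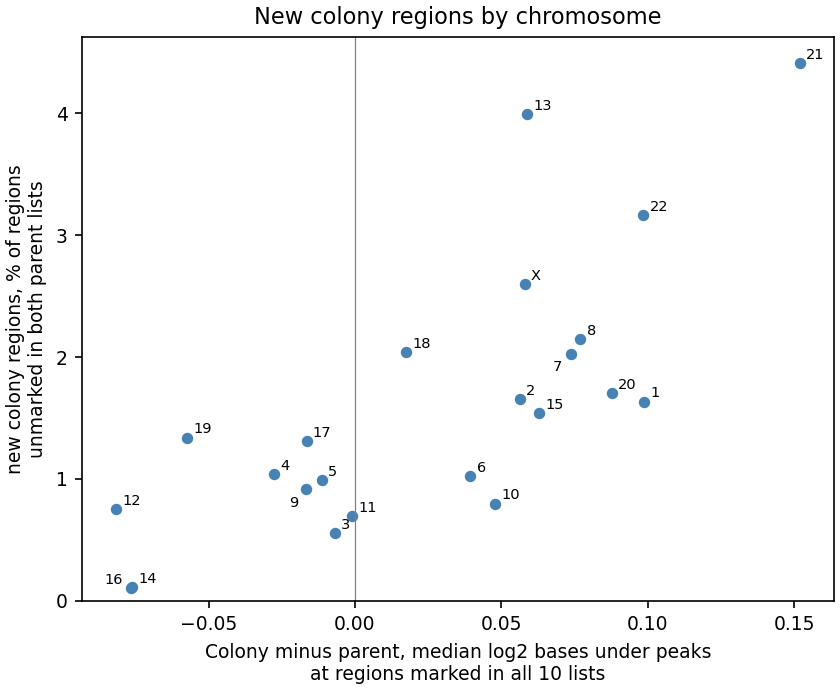
New colony regions as a percentage of the regions unmarked in both parent lists (y axis), by chromosome, against the median log2 covered bases of Colony minus parent at regions marked in all 10 lists (x axis). Chromosome 21 is highest on both axes, at 4.41% and 0.15, and chromosomes 14 and 16 are lowest on the y axis, at 0.114% and 0.106%.

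Some bands held more of the new colony regions than of all regions. Among bands with at least 4, Xq26.3 had the highest share of its regions unmarked in parent, 4 of 22 (18.2%). Next came 8q12.1, with 4 of 37 (10.8%), and 17p11.2 (10.3%). Band 17p11.2 had 10, or 2.81% of new colony regions, beside 0.416% of all regions. None of the 10 had a Resist peak, 8 were in the Colony lists alone and 6 were isolated. The 2 widest there by the mean of both Colony libraries, at chromosome 17, 18423097 to 18424465 and 18853071 to 18854664, covered 1191 and 1276 bp and 1356 and 1115 bp in Colony and none in any other library. The band is known for large duplicated segments, and the sources used here do not say how reads that match several copies were placed. At the 60 regions of 17p11.2 marked in all 10 lists, the median log2 covered length of Colony minus parent was 0.14, against -0.02 for the whole of chromosome 17. Against parent 1 it was 0.02 and 0.05 in the 2 Colony libraries, and against parent 2 0.15 and 0.21.

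Bands 19q13.12 and 19p13.2, known for clusters of zinc finger genes that encode transcription factors, held 7 and 4 new colony regions. The 7 at 19q13.12 were 1.97% of the set, beside 0.267% of all regions, and 3 of them were in the Colony lists alone. The 4 at 19p13.2 were 1.12% of the set, beside 0.945% of all regions, so that band held about its share. A stretch of it had 3 isolated regions in no list but Colony. They covered 1812 and 2080 bp (12404103 to 12406182), 1102 and 1085 bp (12443458 to 12444562), and 435 and 286 bp (12476205 to 12476715). Centromeric and variable bands held 8 new colony regions (2.25%), beside 2.37% of all regions.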

How the data were processed

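The authors deposited 1 peak list per H3K4me3 library, called for each library separately. MACS2 2.1.2, deepTools 2.5.4, BWA and SAMtools are named, with builds hg19 and GRCh37, in the submitters' processing notes. The use of inputs and duplicate reads is not given in the sources at hand, and the 10 inputs were not used here. Fixation is stated for the parent, Colony and Resist cells only. The deposited positions are in bases. The deposited score is not interpreted here. The deposited fold is the ratio of summit pileup to local background, and each summit also has a deposited −log10 q-value and −log10 p-value. All are the authors' values and rank peaks within a list.

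Of 306884 peaks, 306295 on the autosomes and X were used. Overlapping peaks were merged, and bases under peaks were counted per library. The new colony regions and their classes follow a rule chosen with earlier results of these data known, as were the named regions and the tests. The rule for named regions took, in each Resist class, the 5 isolated regions whose mean −log10 q over the Colony lists was highest, the 5 strongest within 1000 bp, the 5 with most covered bases, up to 5 called by limma, and those at the limit. The pileup solved from fold and p was whole, within 0.0005 in −log10 p, for every peak tried. With 2 libraries against 2, an exact permutation test cannot go below p = 0.333, so none was used.

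For the test, limma 3.58.1 (R 4.3.3) was fitted to log2(covered bases + 200), with 5 group means, eBayes with a trend and each library centred on its median over regions marked in all 10 lists. Bands came from circlize 0.4.16. Other steps used Python 3.11.15, pandas 2.3.3, numpy 2.4.6 and scipy 1.17.1. The steps were tested on simulated data. Alternatives were stricter peaks, equal list lengths, merging within 1000 bp, a 200 bp overlap, other pseudocounts, centring, filters and trend, other distance limits, a replicate block and leaving out each library.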

Additional observations from a re-analysis of the deposited data

Results flagged for a closer look

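Mitochondrial peaks lie outside the chromosomes compared, and their extent was higher in Colony than in parent. The peaks covered a mean of 16569 bp in the 2 Colony libraries, against 12600 and 14291 bp in the parent libraries. Resist and Q61K libraries had 0 bp. Each Colony library held this length as 1 peak. No test was made of the difference between Colony and parent, and it is not read as a gain of H3K4me3.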

How the results depend on the processing

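How many new colony regions there were depended strongly on the peak lists. Restricting all lists to −log10 q of 10 or more gave 146 new colony regions, 138 of them isolated and 73 in no GFP or Q61K list. Lists of equal length gave 547, with 427 isolated, 108 in both Resist lists and 404 in no GFP or Q61K list. Merging peaks within 1000 bp gave 190, with 96 in no GFP or Q61K list. Requiring −log10 q of 10 or more in Colony alone, an alternative added after seeing the data, left 41, all isolated, with 15 in both Resist lists and 16 in no GFP or Q61K list. Leaving out 1 library at a time gave 410 to 1600 new colony regions, 271 to 723 isolated, 53 to 104 in both Resist lists and 194 to 1005 in no GFP or Q61K list. Without Colony 1 there were 1600 and without Colony 2 1386, and without parent 1 there were 565, of which 104 were in both Resist lists. Leaving out 1p36.33 and the centromeric and variable bands, also added after seeing the data, gave 345, 224, 47 and 179.

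Covered length in Q61K against GFP gave 38 calls among the 356 regions and 2837 over the whole table. With the GFP and Q61K libraries alone there were 0 and 59, and under the stricter peak threshold 1 and 720. Leaving out 1 library gave 20 to 37 and 770 to 1650, the fewest new colony regions without Q61K 1. The share of higher calls over the whole table also moved: it was 218 of 803 without Q61K 1, 1523 of 1650 without GFP 2, 1445 of 1895 with a pseudocount of 1000 bp and 1597 of 2837 as reported. With the replicate number as a block there were 35 and 2705 calls. Same-numbered GFP and Q61K libraries showed little joint deviation (r = 0.0396). That value cannot exclude a shared batch, and the labels do not say whether the numbers mark one. The other alternatives gave counts within 1.5 times of those reported, and the causes of the larger shifts were not tested. Depth is known only through pileups, and a peak missing from a list may be a mark below its threshold.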
